A study of Mus musculus with 8 samples.

Results

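The genes described here are amino acid transporters of 7 solute carrier families, followed across 3 cloned lines of mouse fibroblasts. A gene was a member when the RefSeq transcript that names its row of array values mapped to a symbol beginning with Slc1a, Slc3a, Slc6a, Slc7a, Slc36a, Slc38a or Slc43a and a digit. The rule took 65 of the 22523 rows that are not array controls. Rows with the same values on all 8 arrays, to 6 decimals, were counted once, which left 57 rows naming 56 genes, of 18172 distinct rows and 15649 named genes in all. The RefSeq table holds 67 such symbols, and the other 11 were not analysed here. Among the 57 rows 16 belong to Slc7a, 2 to Slc3a, 8 to Slc1a, 8 to Slc38a, 3 to Slc36a, 3 to Slc43a and 17 to Slc6a. Slc7a6os fits the pattern of names but is a gene on the opposite strand of Slc7a6 and no transporter, and it is counted among the 57 rows and in the counts of members below.

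The arrays compared a state of asymmetric self-renewal, in which a dividing cell keeps 1 stem-like daughter, with states of symmetric self-renewal. Ind-8 cells (the asymmetric state, ASYM) are p53-null fibroblasts that carry a mouse p53 cDNA under a metallothionein promoter switched on by zinc. Con-3 (SYM) is p53-null and holds an empty vector according to the study's methods, whereas the sample labels name it the congenic parent line of Ind-8. tI-3 cells (p53SYM) were derived from Ind-8 and also express IMPDH II, an enzyme of guanine nucleotide synthesis, constitutively. All 3 lines were grown for 48 h with 65 µM ZnCl2 in medium with 10% dialyzed serum and puromycin at 5 µg/ml, and the tI-3 medium also held G418, whose stated dose differs between the labels and the study's methods. Ind-8 and Con-3 had 3 arrays each and tI-3 had 2, from independent cell preparations. Each state is 1 cloned line, so line and state cannot be told apart, and the p-values below measure the spread between these preparations.

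Amino acids cross membranes through carriers with overlapping substrates. Light chains of the Slc7a family pair with a heavy chain of the Slc3a family and work as exchangers, while carriers of the Slc1a, Slc6a and Slc38a families use the sodium gradient and those of Slc36a the proton gradient of the lysosome. Growing fibroblasts are known to take up leucine, arginine, glutamine and cystine by a small set of these carriers, several of which are targets of the amino acid response factor ATF4, whereas many Slc6a carriers serve neurons, kidney or gut.

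The values are log2 intensities, and some properties of the arrays bear on them. Con-3 replicate 3 stood apart on the control row for the 5' part of 18S rRNA, at 10.97 against 4.55 to 5.25 on the other 7 arrays. Its hybridization controls averaged 10.44 and those of the tI-3 arrays 10.24 and 10.46, against 9.88 to 10.00 on the other 5. The dim end of these 3 arrays also read higher. The median of the rows under the 25th percentile of row means was 3.86 on Con-3 replicate 3 and 3.86 and 3.89 in tI-3, against 3.72 to 3.78 elsewhere. Over the 4570 distinct rows under it, 497 were called lower and 43 higher in Ind-8 against tI-3, and their median log2 difference was -0.14. The bright end of the tI-3 arrays read lower. The median of the brightest rows was 9.34 and 9.27 there, against 9.39 to 9.45 elsewhere. Split into 10 classes of level, distinct rows of classes 7 to 10 had medians from 0.12 to 0.16 in Ind-8 against tI-3. In tI-3 against Con-3 these were -0.14 to -0.12. Slc3a2, Slc7a6, Slc43a3 and Slc1a4, called lower in tI-3 than in Con-3, lie in the direction of this shift. Its part in these calls was not tested. The counts of members called between Con-3 and each other line are given below also without Con-3 replicate 3.

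A row was taken as near background in a line where its mean lay under 4.30, the 25th percentile of the row means. By this measure 13 of the 57 members were near background in all 3 lines, 8 in 1 or 2 lines and 36 in none. The Slc6a family held 6 of the 13 and the Slc7a family 4. RMA values carry no detection call. With the stricter level of 5.12, the 95th percentile of 36 olfactory receptor rows, 28 members were below it in all 3 lines and 24 above it in all 3. The number of arrays limits how precisely any of these levels is known. Rows of different genes use different probes, so their levels are given for each gene and are not ranked against each other.

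**Figure D1:**
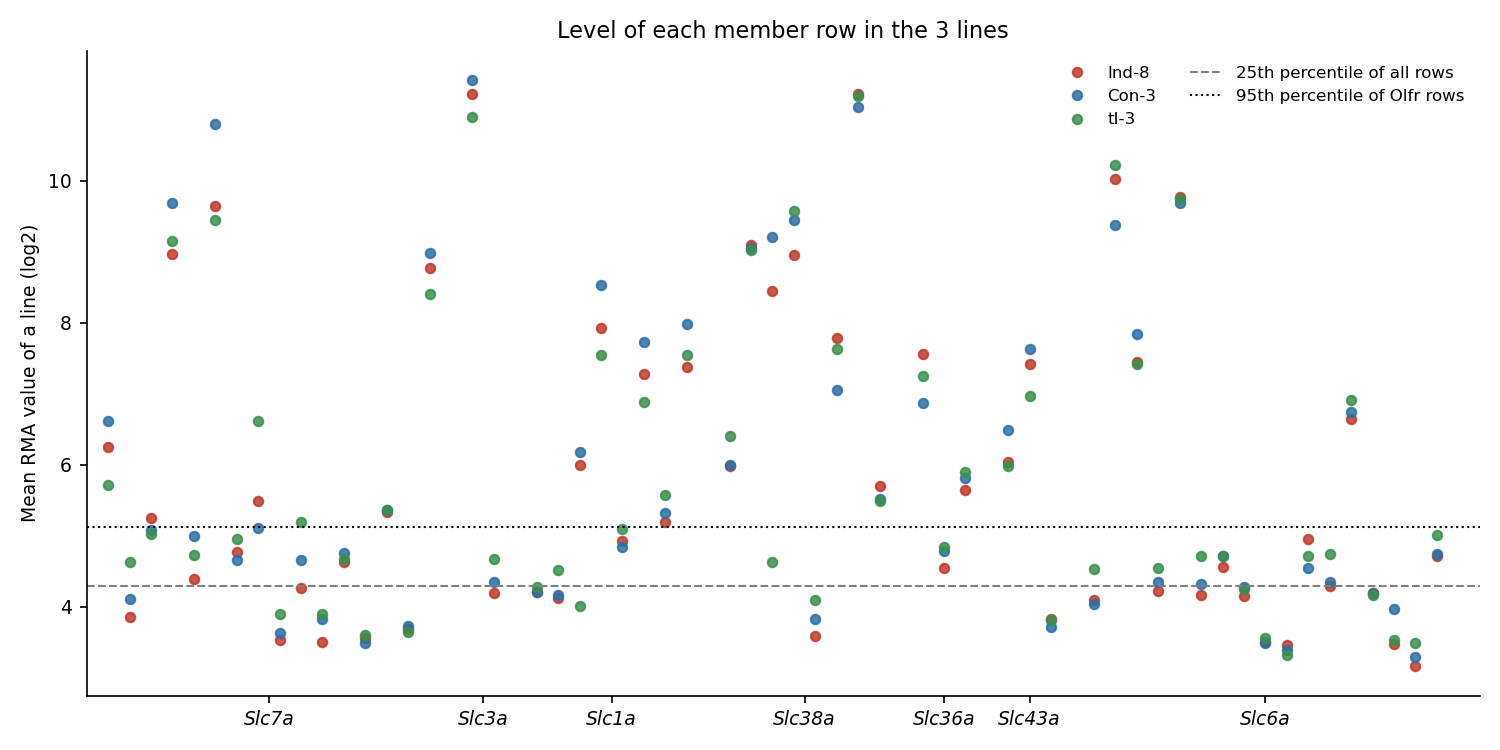
Mean log2 value of each of the 57 member rows (x axis, grouped by family) in Ind-8 (3 arrays), Con-3 (3 arrays) and tI-3 (2 arrays). The dashed line is the 25th percentile of all row means and the dotted line the 95th percentile of olfactory receptor rows; 13 members lie under the dashed line in all 3 lines.

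The labels were checked on genes that they should move. Trp53 read 5.68, 5.87 and 5.80 in Ind-8, 5.21, 5.29 and 5.27 in Con-3 and 5.60 and 5.69 in tI-3. It was higher than in Con-3 in Ind-8 (log2 difference 0.53, SE 0.09, adjusted p = 0.00192) and in tI-3 (log2 difference 0.39, SE 0.10, adjusted p = 0.0144), the second at an adjusted p of 0.109 without tI-3 replicate 2, within a range from 0.0149 to 0.109 with 1 array left out. Cdkn1a, a p53 target that halts the cell cycle, read 9.70, 9.70 and 9.59 in Ind-8, 5.73, 5.81 and 6.03 in Con-3 and 7.55 and 7.33 in tI-3, with no overlap between the lines, and Ccng1 and Mdm2 kept the same order. In the lines' means these 2 p53 targets were 12.09, 9.19 and 10.85 for Ccng1 and 10.90, 8.90 and 9.62 for Mdm2, in the order Ind-8, Con-3 and tI-3. Impdh2 was high in every line, with means of 12.19, 12.53 and 12.36, and was not called between tI-3 and Ind-8 (adjusted p = 0.163). Its mean was highest in Con-3, so these values do not show the added IMPDH II of tI-3. The zinc-responsive Mt1 and Mt2 had means of at least 13.07 in all 3 lines. Every culture had zinc, so these levels cannot show that zinc moved them. Of 10 fibroblast markers 8 were above the dim end in Ind-8 and Con-3 and 9 in tI-3. Vim, Fn1 and Col1a2 had means of at least 12.03. Of the 21 rows for epithelial, endothelial, leukocyte, neuronal and muscle markers, 11 were near background in Ind-8, 12 in Con-3 and 9 in tI-3, among them Ptprc, Cdh1 and Pecam1. Others were above the dim end in all 3 lines. In the order Ind-8, Con-3 and tI-3, the means were 5.84, 6.16 and 6.60 for Kdr and 5.93, 6.04 and 6.22 for Des. They were 5.32, 5.43 and 5.76 for Csf1r and 5.03, 5.72 and 4.82 for Gap43. Rows of Kdr, Csf1r, Gap43, Syp, Rbfox3 and Ckm were called in at least 1 comparison. The linear values of the 21 rows summed to 497, 467 and 502 in Ind-8, 511, 544 and 579 in Con-3 and 579 and 630 in tI-3. Limma called 2 of these rows lower in Ind-8 against Con-3, 5 lower in Ind-8 against tI-3, and 3 higher and 1 lower in tI-3 against Con-3. The shares of all distinct rows were 10.9% higher and 10.3% lower, 15.9% and 14.8%, and 10.1% and 15.5%. The 5 became 2 with the arrays quantile-normalized again and 0 with the hybridization controls as a covariate, where 2 had an unadjusted p under 0.05, and the 3 became 1 and 0, where 3 had. The 2 in Ind-8 against Con-3 became 1 with the covariate or without Con-3 replicate 3. In tI-3 against Con-3 the calls of Kdr, Csf1r and Ckm were lost without Con-3 replicate 2 (limma adjusted p = 0.0516, 0.105 and 0.0630). They were also lost without tI-3 replicate 2. In Ind-8 against tI-3 those of Rbfox3 and Syp were lost without Ind-8 replicate 1 (limma adjusted p = 0.0984 and 0.0973). Without tI-3 replicate 2 those of Rbfox3, Syp and Csf1r were lost. The part of these markers in the transporter differences was not tested.

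In Ind-8 against Con-3 more transporters were called lower than higher in the asymmetric line, also with the arrays centred or quantile-normalized again. By limma, a linear model with an adjusted p over all 22523 rows, 10 of the 57 members fell (17.5%, against 10.3% of all distinct rows) and 3 rose (5.26%, against 10.9%). Among the 10, Slc7a5, Slc38a4 and Slc7a1 had the largest differences, and the 3 were Slc38a7, Slc36a1 and Slc6a8. All 3 and 8 of the 10 were above the dim end in both lines, and Slc6a15 and Slc7a9 were near background in both. Of the 37 members above the dim end in both lines, 21.6% were lower and 8.11% higher. Of distinct rows above the 25th percentile of row means, 13.2% were lower and 14.2% higher. The call of Slc7a9 (log2 difference -0.32, adjusted p = 0.0245) was lost in 6 of 15 other settings, at 0.111 with the hybridization controls as a covariate, 0.0619 without Ind-8 replicate 1, 0.0698 without Ind-8 replicate 2, 0.0553 without Ind-8 replicate 3, 0.0821 without Con-3 replicate 2 and 0.0641 without Con-3 replicate 3, in a range from 0.0176 to 0.111. The rank product test, which the study used, called 2 members lower at a proportion of false positives (pfp) under 0.05, Slc7a5 and Slc38a4, where it called 1.5% of distinct rows lower and 2.22% higher. It called 0 members higher, with 4 at an unadjusted p under 0.05, against the 3 of limma. With each of its rankings permuted on its own it called 4 members higher and 12 lower, and with rows above the 25th percentile only or a pfp under 0.01 it called 1 lower. The median log2 difference of the members was -0.13 and that of all distinct rows -0.06. Without Con-3 replicate 3, 7 members were called lower and 2 higher by limma, and the median was -0.06, as with the arrays quantile-normalized again, and -0.08 without Con-3 replicate 1. By rank product 1 member was lower without Con-3 replicate 1 or any 1 of the Ind-8 arrays, and 0 without Con-3 replicate 2 or Con-3 replicate 3, where limma called 8 and 7. In bulk RNA, fewer cells with a transcript and less of it per cell cannot be told apart.

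Against tI-3, Ind-8 had 6 members higher (10.5%, against 15.9% of distinct rows) and 12 lower (21.1%, against 14.8%) by limma. Of the 36 members above the dim end in both lines, 13.9% were higher and 11.1% lower. Of distinct rows above the 25th percentile of row means, 21.0% were higher and 16.1% lower. Among these brighter members the share called lower was thus not above that of the rows. The 6 higher members included Slc38a4, Slc1a6, Slc3a2 and Slc7a6os, which is no transporter, and 5 of them were above the dim end in both lines. Of the 12 lower members Slc7a11, Slc38a1, Slc1a7 and, at 4.30 in Ind-8, Slc6a13 were above the dim end in both lines, and the other 8, such as Slc7a10 and Slc3a1, were near background in Ind-8 or in both. The call of Slc1a7 (log2 difference -0.37, adjusted p = 0.0384) was lost in 8 of 16 other settings, at 0.0558 with a trend in the prior, 0.118 with the arrays quantile-normalized again, 0.430 with the hybridization controls as a covariate, 0.104 without Ind-8 replicate 1, 0.0853 without Ind-8 replicate 2, 0.0514 without Con-3 replicate 2, 0.239 without tI-3 replicate 1 and 0.0537 without tI-3 replicate 2, in a range from 0.0160 to 0.430. That of Slc6a13 (log2 difference -0.44, adjusted p = 0.0491) was lost in 8 of 16 other settings, at 0.0634 with the compared lines alone in the fit, 0.215 with the arrays quantile-normalized again, 0.729 with the hybridization controls as a covariate, 0.123 without Ind-8 replicate 1, 0.134 without Ind-8 replicate 2, 0.0519 without Con-3 replicate 1, 0.0677 without Con-3 replicate 2 and 0.355 without tI-3 replicate 2, in a range from 0.00941 to 0.729. By rank product Slc38a4 and Slc1a6 were called higher, where 1.55% of distinct rows were higher and 0.44% lower. It called 0 members lower, with 6 at an unadjusted p under 0.05, against the 12 of limma, and 5 with each ranking permuted on its own. Limma called 7 lower with the arrays quantile-normalized again. The median log2 difference was -0.07 over the members and -0.06 over all distinct rows, and over the members it was -0.02 with the arrays quantile-normalized again, -0.12 without tI-3 replicate 1 and -0.13 without tI-3 replicate 2. The limma counts changed when the level of the hybridization controls, high on both tI-3 arrays, was a covariate. Under it 2 members were higher, Slc38a4 and Slc1a6, and 0 lower, with 5 higher and 6 lower at an unadjusted p under 0.05. The share of all distinct rows called under it was not computed, so this loss is not a result about the transporters. Amino acid carriers of other families went from 3 higher and 6 lower to 0 and 0. The covariate was 9.88 to 9.95 in Ind-8 and 10.24 and 10.46 in tI-3, so its effect cannot be told apart from that of line. Limma called 2 members higher without Ind-8 replicate 1, 3 without tI-3 replicate 1, and 2 higher and 4 lower without tI-3 replicate 2. Without Ind-8 replicate 3 the rank product test called 1 member higher.

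Between the symmetric lines, limma called 13 members lower in tI-3 than in Con-3 (22.8%, against 15.5% of distinct rows). It called 6 higher (10.5%, against 10.1%). Of the 40 members above the dim end in both lines, 27.5% were lower and 7.5% higher. Of distinct rows above the 25th percentile of row means, 20.4% were lower and 12.1% higher. Slc38a4, Slc1a6, Slc7a5 and Slc1a5 had the largest falls, and Slc7a11, Slc6a8 and Slc38a7 the largest rises, and Slc7a6os was among the 13 lower. Of the 13, 11 were above the dim end in both lines, while Slc1a6 was near background in tI-3 and Slc6a15 in both. Of the 6 higher, 3 were near background in Con-3. The call of Slc6a15 (log2 difference -0.44, adjusted p = 0.0244) was lost in 5 of 15 other settings, at 0.107 with the hybridization controls as a covariate, 0.0566 without Con-3 replicate 1, 0.0847 without Con-3 replicate 2, 0.132 without tI-3 replicate 1 and 0.0733 without tI-3 replicate 2, in a range from 0.0117 to 0.132. By rank product Slc38a4, Slc1a6 and Slc7a5 were called lower and Slc7a11 higher, with 1.64% of distinct rows lower and 0.638% higher. It called 7 members lower and 5 higher with each ranking permuted on its own, and 0 higher at a pfp under 0.01. The median log2 difference was 0.07 over the members and 0.03 over all distinct rows. Limma called 3 members higher without tI-3 replicate 2, 2 with the hybridization controls as a covariate and 10 with the array numbers as a replicate block. Without Con-3 replicate 3 the counts were 8 higher and 12 lower, with a median of 0.11, and the median was 0.03 without tI-3 replicate 2 or with the arrays quantile-normalized again. The 3 comparisons share arrays, so their calls are not independent. In all, 29 members were called in at least 1 comparison, and Slc38a4 alone in all 3.

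**Figure D2:**
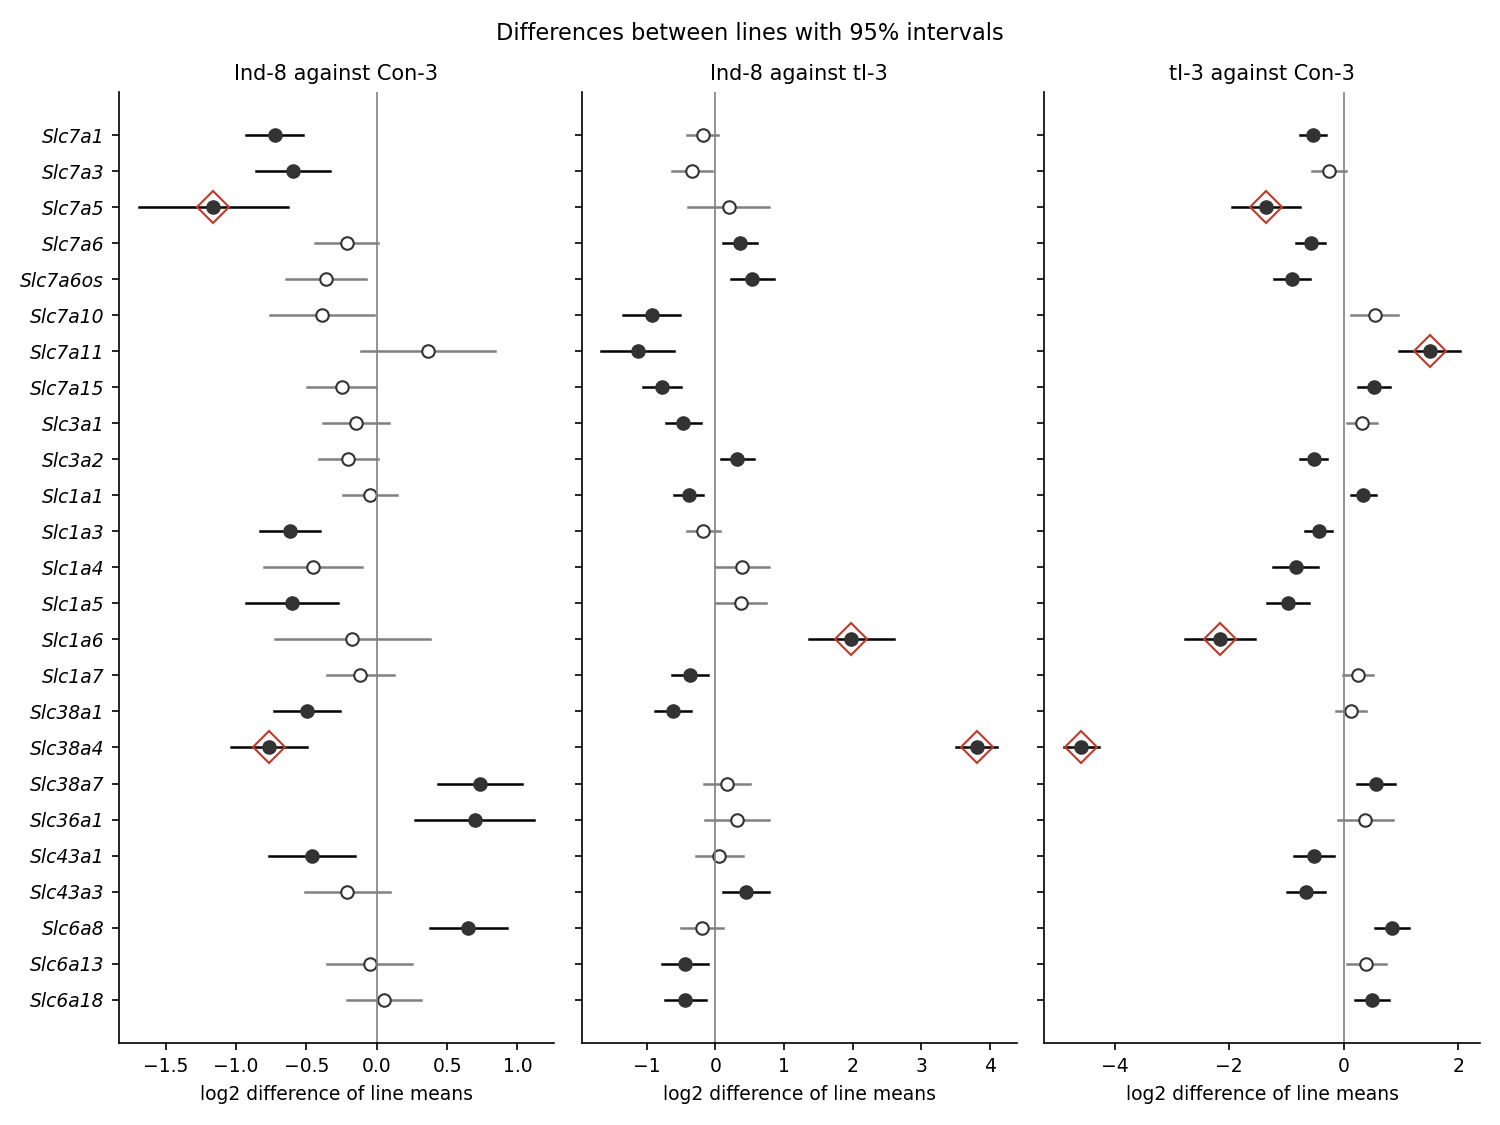
Log2 difference of line means (x axis, scale differs between panels) with its 95% interval for the members called by limma in at least 1 comparison and above the dim end in 1 of the compared lines. Filled points are limma calls, open points are not called, and diamonds mark rank product calls; Slc38a4 lies farthest from 0 in both comparisons with tI-3.

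Of the heterodimeric carriers the leucine exchanger was highest in Con-3. Slc7a5, the light chain that brings large neutral amino acids such as leucine into growing cells, read 9.78, 9.14 and 10.01 in Ind-8, 10.35, 10.95 and 11.10 in Con-3 and 9.26 and 9.64 in tI-3. Every Con-3 array was above every Ind-8 and tI-3 array, and the last 2 lines overlapped. Slc7a5 was 2.24-fold lower in Ind-8 than in Con-3 (log2 difference -1.16, 95% interval -1.69 to -0.63, adjusted p = 0.00666) and 2.55-fold lower in tI-3 (log2 difference -1.35, 95% interval -1.95 to -0.76, adjusted p = 0.00449). A row named by a model transcript that the RefSeq table does not hold has the same values, so the 2 cannot be told apart. Slc3a2, the heavy chain that carries Slc7a5 to the cell surface, read 11.18, 11.19 and 11.27 in Ind-8, 11.27, 11.46 and 11.53 in Con-3 and 10.95 and 10.83 in tI-3, lowest on both tI-3 arrays. It fell in tI-3 against Con-3 (log2 difference -0.52, 95% interval -0.76 to -0.29, adjusted p = 0.00520), where the adjusted p was 0.0557 without tI-3 replicate 2 and ran from 0.00181 to 0.0557 over 16 other settings. Between Ind-8 and Con-3 it was not called (log2 difference -0.20, adjusted p = 0.169). Its higher level in Ind-8 than in tI-3 (log2 difference 0.32, 95% interval 0.08 to 0.56, adjusted p = 0.0428) was lost in 9 of 16 other settings. The adjusted p was 0.0734 with the array numbers as a replicate block and 0.214 with the arrays quantile-normalized again. It was 0.162 with the hybridization controls as a covariate and 0.0619 without Con-3 replicate 2. Without Ind-8 replicate 1, 2 or 3 it was 0.0734, 0.0785 and 0.101. The call was also lost without tI-3 replicate 1 and without tI-3 replicate 2, fits that keep 1 tI-3 array.

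Slc7a6, a partner of Slc3a2 that exchanges cationic for neutral amino acids, read 8.87, 8.62 and 8.81 in Ind-8, 9.10, 8.86 and 8.98 in Con-3 and 8.44 and 8.38 in tI-3, with tI-3 under all other arrays. It fell in tI-3 against Con-3 (log2 difference -0.57, 95% interval -0.82 to -0.32, adjusted p = 0.00451). Its excess in Ind-8 over tI-3 (log2 difference 0.36, 95% interval 0.11 to 0.61, adjusted p = 0.0362) was lost at an adjusted p of 0.204 with the arrays quantile-normalized again, 0.309 with the hybridization controls as a covariate, 0.101 without Ind-8 replicate 1, 0.0828 without Ind-8 replicate 3, 0.0902 without tI-3 replicate 1 and 0.175 without tI-3 replicate 2, and the adjusted p ran from 0.0270 to 0.309 over 16 other settings. Slc7a6os, the next gene on the opposite strand, read 6.48, 6.20 and 6.09 in Ind-8, 6.66, 6.53 and 6.66 in Con-3 and 5.91 and 5.54 in tI-3. The 2 neighbours had the same order of lines. Slc7a6os was 1.86-fold lower in tI-3 than in Con-3 (log2 difference -0.90, 95% interval -1.21 to -0.58, adjusted p = 0.00139), and its difference between Ind-8 and tI-3 was 0.54 (95% interval 0.22 to 0.85, adjusted p = 0.0184), which became 0.235 with the hybridization controls as a covariate, 0.0529 without Ind-8 replicate 1 and 0.179 without tI-3 replicate 2 and ran from 0.00760 to 0.235 over 16 other settings. Slc7a8, another light chain for neutral amino acids, was near background in all 3 lines, as was the kidney light chain Slc7a9. Slc7a7 was not called in any comparison, though it was higher in tI-3 than in Con-3 with the array numbers as a replicate block (adjusted p = 0.0402), and had means of 4.78, 4.66 and 4.95. Slc3a1, the heavy chain of kidney and gut, read 4.18, 4.18 and 4.24 in Ind-8, 4.16, 4.54 and 4.35 in Con-3 and 4.62 and 4.72 in tI-3. Both tI-3 arrays were above all others.

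The cystine exchanger was highest in tI-3. Slc7a11, the light chain that exchanges cystine for glutamate and so feeds glutathione synthesis, read 5.48, 5.87 and 5.10 in Ind-8, 4.98, 5.07 and 5.30 in Con-3 and 6.98 and 6.25 in tI-3. Both tI-3 arrays were above all arrays of the other lines, which overlapped. The Con-3 mean of 5.118 lay just under the olfactory receptor level of 5.125, so the fold against Con-3 is a ratio of readings. Slc7a11 was 2.83-fold higher in tI-3 than in Con-3 (log2 difference 1.5, 95% interval 0.97 to 2.03, adjusted p = 0.00141). It was 2.19-fold higher than in Ind-8, where the log2 difference of Ind-8 against tI-3 was -1.13 (95% interval -1.66 to -0.60, adjusted p = 0.00674). The last adjusted p was 0.129 with the hybridization controls as a covariate and 0.0594 without tI-3 replicate 1, in a range from 0.00499 to 0.129 over 16 other settings. The rank product test called the first difference (pfp = 0.0220) and not the second (pfp = 0.0683). It made no call of a higher member in tI-3 against Con-3 without Con-3 replicate 1, Con-3 replicate 2, tI-3 replicate 1 or tI-3 replicate 2, a count of 0 in place of 1, where limma called from 3 to 7 members with the same arrays left out.

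The promoters of Slc7a11 and of Slc1a4, a carrier of alanine, serine and cysteine, hold TGATGNAA, the core of the element that ATF4 and C/EBP proteins bind. They are shown because both genes were called between tI-3 and Con-3, in opposite directions. The sequences are from RefSeq, build GRCm38.p6, on the minus strand and written 5' to 3' along the gene, with each match on either strand in capitals. They cover 120 bases each. The stretch of Slc7a11 ends at the base before a RefSeq start of transcription, and that of Slc1a4 includes the first 20 transcribed bases. This start of Slc7a11 lies inside the gene's span of chr3:50364936-50499087 and is not the outermost one.
Slc7a11, chr3:50443614-50443733: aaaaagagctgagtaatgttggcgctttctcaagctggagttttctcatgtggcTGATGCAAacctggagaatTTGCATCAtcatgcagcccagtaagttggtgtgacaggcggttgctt
Slc1a4, chr11:20332694-20332813: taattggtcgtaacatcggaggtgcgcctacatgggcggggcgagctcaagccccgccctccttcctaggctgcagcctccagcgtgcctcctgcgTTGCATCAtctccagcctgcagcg
Slc7a11 holds 2 matches on opposite strands, and Slc1a4 holds 1 across its start. Over the 300-base windows of the RefSeq promoter table (250 bases before and 50 after each start), the motif was found on either strand in 4 of the 58 windows that 38 of the 56 member genes have (6.90%), and in 3.97% of all 32851 windows. Slc7a7 was the other gene with it. The table has no window for Slc7a5 or Slc1a5. TGACNNNGC, the core of the antioxidant response element, was in 10 member windows (17.2%), Slc7a1 among their 8 genes, and in 12.4% of all windows. A match is a description of the letters in these windows.

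Of the cationic carriers Slc7a1, the main route of arginine and lysine into most cells, read 9.01, 8.82 and 9.06 in Ind-8, 9.63, 9.73 and 9.72 in Con-3 and 9.13 and 9.18 in tI-3. All Con-3 arrays were above all others, and Ind-8 and tI-3 did not overlap but lay close together. Slc7a1 was 1.65-fold lower in Ind-8 (log2 difference -0.73, 95% interval -0.93 to -0.52, adjusted p = 0.000522) and 1.45-fold lower in tI-3 than in Con-3 (log2 difference -0.54, 95% interval -0.77 to -0.31, adjusted p = 0.00387). Both calls were kept in each of the 16 other settings of the fit. The rank product test put the first just outside its threshold (pfp = 0.0505). Between Ind-8 and tI-3 the log2 difference was -0.19 (95% interval -0.42 to 0.04, adjusted p = 0.183), and it was called with the arrays quantile-normalized again (adjusted p = 0.0491). Slc7a3, a related arginine carrier known from brain, read 4.56, 4.48 and 4.15 in Ind-8, 4.92, 4.94 and 5.12 in Con-3 and 4.70 and 4.77 in tI-3, below the olfactory receptor level in all 3 lines on average. It fell in Ind-8 against Con-3 (log2 difference -0.59, 95% interval -0.86 to -0.33, adjusted p = 0.00543). Slc7a2, the carrier induced in activated macrophages, had means of 5.25, 5.08 and 5.03 in Ind-8, Con-3 and tI-3 and was not called, except as higher in Ind-8 than in tI-3 with the arrays quantile-normalized again (adjusted p = 0.0416). Slc7a10, an exchanger of small neutral amino acids known from brain and fat, read 4.04, 4.53 and 4.23 in Ind-8, 4.48, 4.63 and 4.86 in Con-3 and 4.93 and 5.47 in tI-3, highest in tI-3. Its difference in Ind-8 against tI-3 (log2 difference -0.93, 95% interval -1.34 to -0.52, adjusted p = 0.00519) starts from a near-background line and became 0.239 with the hybridization controls as a covariate and 0.0616 without tI-3 replicate 2, with a range from 0.00135 to 0.239 over 16 other settings. It was not called in tI-3 against Con-3 (log2 difference 0.54, adjusted p = 0.0567), though it was with the array numbers as a replicate block (adjusted p = 0.0134), with rows above the 25th percentile only (adjusted p = 0.0483), without Ind-8 replicate 2 (adjusted p = 0.0474), without Con-3 replicate 3 (adjusted p = 0.0444) and without tI-3 replicate 1 (adjusted p = 0.0258), in a range from 0.0134 to 0.437 over 16 other settings, nor in Ind-8 against Con-3, where it was called with the array numbers as a replicate block (adjusted p = 0.0385).

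**Figure D3:**
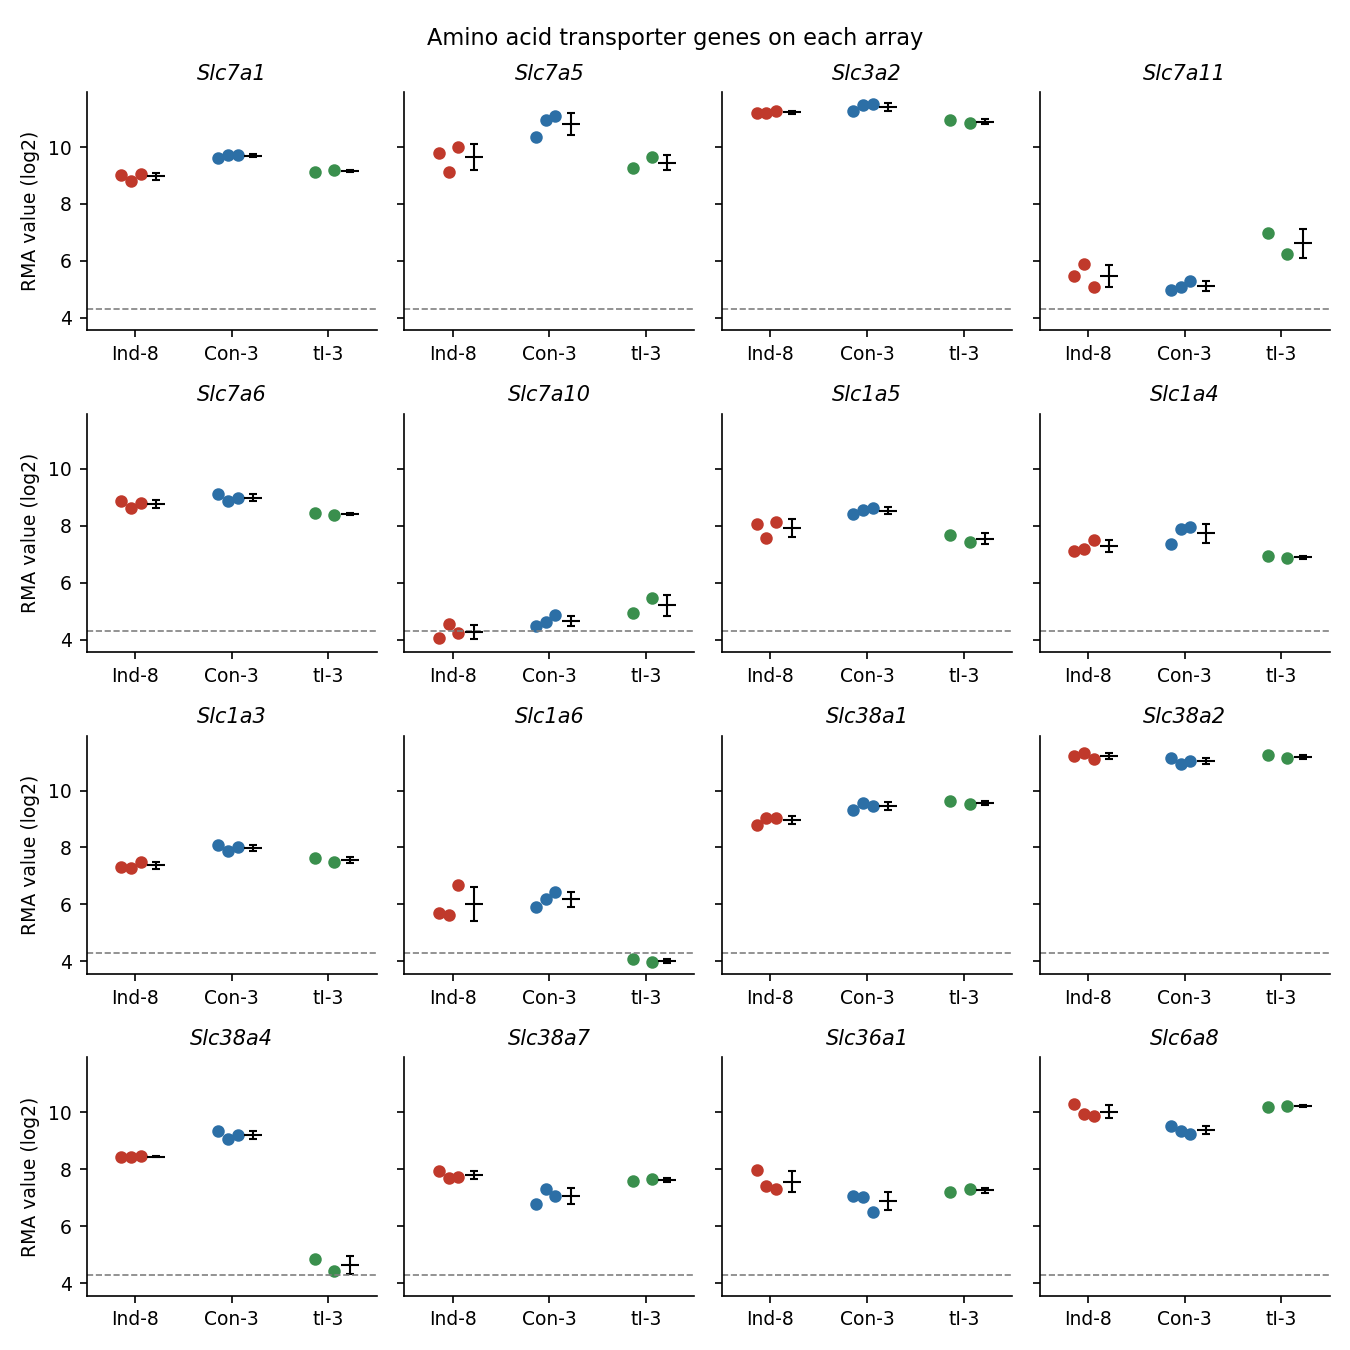
Log2 value (y axis) of 16 transporter genes on each array of Ind-8 (3 arrays), Con-3 (3) and tI-3 (2), with the mean and SD of each line as a bar beside the points. The dashed line is the 25th percentile of all row means; Slc7a5 and Slc7a1 are highest in Con-3, Slc7a11 in tI-3, and Slc38a4 and Slc1a6 are lowest in tI-3.

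Of the neutral amino acid exchangers among the Slc1a carriers, Slc1a5 was highest in Con-3, and Slc1a4 was called between tI-3 and Con-3 alone. Slc1a5, the glutamine exchanger of growing cells, read 8.06, 7.57 and 8.14 in Ind-8, 8.40, 8.56 and 8.62 in Con-3 and 7.67 and 7.42 in tI-3. Con-3 was above the other lines on every array, and Ind-8 and tI-3 overlapped. It fell 1.97-fold in tI-3 (log2 difference -0.98, 95% interval -1.34 to -0.61, adjusted p = 0.00191) and 1.52-fold in Ind-8 (log2 difference -0.60, 95% interval -0.93 to -0.28, adjusted p = 0.0143). The second call was lost, at an adjusted p of 0.0735 with the hybridization controls as a covariate and 0.0536 without Con-3 replicate 3, in a range from 0.00802 to 0.0735 over 16 other settings. Slc1a4 read 7.13, 7.19 and 7.51 in Ind-8, 7.36, 7.88 and 7.94 in Con-3 and 6.93 and 6.85 in tI-3, and Ind-8 and Con-3 overlapped. It fell in tI-3 against Con-3 (log2 difference -0.84, 95% interval -1.23 to -0.45, adjusted p = 0.00613), with an adjusted p of 0.0544 without tI-3 replicate 2 in a range from 0.00108 to 0.0544 over 16 other settings, and its other differences, -0.45 for Ind-8 against Con-3 (adjusted p = 0.0672) and 0.39 for Ind-8 against tI-3 (adjusted p = 0.116), were not called. The first of these was called with the array numbers as a replicate block (adjusted p = 0.0247), without Ind-8 replicate 3 (adjusted p = 0.0383) and without Con-3 replicate 1 (adjusted p = 0.00793), in a range from 0.00793 to 0.310 over 16 other settings, and the second without Con-3 replicate 1 (adjusted p = 0.0409), in a range from 0.0409 to 0.376 over 16 other settings.

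Of the glutamate carriers Slc1a3 was highest in Con-3 and Slc1a6 lowest in tI-3. Slc1a3, a high-affinity carrier best known from glia, read 7.33, 7.29 and 7.51 in Ind-8, 8.08, 7.88 and 8.0 in Con-3 and 7.62 and 7.48 in tI-3. It was lower than Con-3 in Ind-8 (log2 difference -0.62, 95% interval -0.83 to -0.40, adjusted p = 0.00161) and in tI-3 (log2 difference -0.44, 95% interval -0.68 to -0.19, adjusted p = 0.0146). The last adjusted p was 0.0800 with the arrays quantile-normalized again, 0.0520 with the hybridization controls as a covariate and 0.120 without tI-3 replicate 2, in a range from 0.0122 to 0.120 over 16 other settings. Slc1a6, a glutamate carrier of Purkinje cells, read 5.71, 5.61 and 6.69 in Ind-8, 5.90, 6.20 and 6.43 in Con-3 and 4.07 and 3.96 in tI-3. Ind-8 and Con-3 overlapped, and tI-3 lay under the near-background level on both arrays. Slc1a6 was 3.96-fold higher in Ind-8 (log2 difference 1.98, 95% interval 1.37 to 2.60, adjusted p = 0.000796) and 4.46-fold higher in Con-3 than in tI-3, where the log2 difference of tI-3 against Con-3 was -2.16 (95% interval -2.77 to -1.54, adjusted p = 0.000440). Since tI-3 was near background, these folds are ratios of readings. Both were kept in each of the 16 other settings and were called by the rank product test (pfp = 0.00175 and 0.000244). Slc1a1, the glutamate and cysteine carrier, was near background in Ind-8 and Con-3 and read 4.47 and 4.57 in tI-3.

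The largest difference of all members was in the sodium-coupled neutral amino acid carriers. Slc38a4, an imprinted gene of liver and placenta that takes up neutral and cationic amino acids, read 8.42, 8.44 and 8.46 in Ind-8, 9.34, 9.07 and 9.21 in Con-3 and 4.85 and 4.41 in tI-3. The 3 lines did not overlap, and both tI-3 arrays lay close to background. Slc38a4 was 14.0-fold higher in Ind-8 than in tI-3 (log2 difference 3.81, 95% interval 3.51 to 4.11, adjusted p = 2.39e-07), and 23.9-fold lower in tI-3 than in Con-3 (log2 difference -4.58, 95% interval -4.88 to -4.28, adjusted p = 3.68e-08). It was also 1.70-fold lower in Ind-8 than in Con-3 (log2 difference -0.77, 95% interval -1.03 to -0.50, adjusted p = 0.00160). All 3 limma calls were kept in each of the 16 other settings, and the rank product test called all 3. Since tI-3 lay under the olfactory receptor level, with a mean of 4.63, the folds against it are ratios of readings. Its rank product call in Ind-8 against Con-3 was the weakest (pfp = 0.0406).

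Slc38a4 lies next to Slc38a2 and Slc38a1 on chromosome 15, in the order Slc38a1, Slc38a2, Slc38a4 among the protein-coding genes of the RefSeq table (GRCm38.p6). The 3 neighbours had different patterns. Slc38a2, the amino acid-regulated carrier of most cells, read 11.21, 11.33 and 11.11 in Ind-8, 11.16, 10.93 and 11.03 in Con-3 and 11.23 and 11.14 in tI-3, and its log2 differences of 0.18, 0.03 and 0.15 in the 3 comparisons were not called. Slc38a1, a glutamine carrier, read 8.79, 9.03 and 9.03 in Ind-8, 9.30, 9.57 and 9.46 in Con-3 and 9.62 and 9.52 in tI-3, lowest in Ind-8. Slc38a1 fell in Ind-8 against Con-3 (log2 difference -0.50, 95% interval -0.73 to -0.26, adjusted p = 0.00798) and against tI-3 (log2 difference -0.62, 95% interval -0.88 to -0.36, adjusted p = 0.00419), the second becoming 0.0882 with the hybridization controls as a covariate in a range from 0.00180 to 0.0882 over 16 other settings.

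Of the lysosomal carriers among the members 2 were higher in Ind-8 than in Con-3. Slc38a7, which exports glutamine from lysosomes, read 7.95, 7.69 and 7.73 in Ind-8, 6.78, 7.32 and 7.08 in Con-3 and 7.58 and 7.66 in tI-3. Con-3 was lowest on every array. It rose in Ind-8 (log2 difference 0.73, 95% interval 0.43 to 1.03, adjusted p = 0.00381) and in tI-3 (log2 difference 0.57, 95% interval 0.23 to 0.90, adjusted p = 0.0198), the second becoming 0.0813 with the hybridization controls as a covariate, 0.0660 without tI-3 replicate 1 and 0.123 without tI-3 replicate 2 in a range from 0.00768 to 0.123 over 16 other settings. Slc36a1, the proton-coupled exporter of small amino acids, read 7.99, 7.42 and 7.29 in Ind-8, 7.06, 7.04 and 6.51 in Con-3 and 7.20 and 7.31 in tI-3. It rose in Ind-8 against Con-3 (log2 difference 0.70, 95% interval 0.27 to 1.12, adjusted p = 0.0251), which became 0.153 with the hybridization controls as a covariate, 0.0723 without Ind-8 replicate 1 and 0.0892 without Con-3 replicate 3 in a range from 0.00549 to 0.153 over 16 other settings. The differences of Slc36a1 between the other lines were 0.32 (Ind-8 against tI-3) and 0.38 (tI-3 against Con-3) and were not called, though the first was with the array numbers as a replicate block (adjusted p = 0.0387). Slc38a9, the lysosomal arginine sensor, had means of 5.71, 5.52 and 5.49 and was not called, and Slc36a4 was not analysed here.

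The Slc43a family holds leucine uniporters and Slc43a3, a carrier of purine nucleobases. Slc43a1 read 6.09, 5.93 and 6.09 in Ind-8, 6.28, 6.52 and 6.69 in Con-3 and 5.75 and 6.21 in tI-3. It fell in Ind-8 (log2 difference -0.46, 95% interval -0.77 to -0.15, adjusted p = 0.0381) and in tI-3 against Con-3 (log2 difference -0.51, 95% interval -0.86 to -0.17, adjusted p = 0.0337). Its first adjusted p became 0.222 with the hybridization controls as a covariate, 0.0718 without Ind-8 replicate 1, 0.128 without Ind-8 replicate 2, 0.0631 without Ind-8 replicate 3, 0.0998 without Con-3 replicate 2 and 0.135 without Con-3 replicate 3, in a range from 0.0219 to 0.222 over 16 other settings, and the second 0.0588 with the compared lines alone in the fit, 0.0831 without Con-3 replicate 2, 0.0864 without Con-3 replicate 3 and 0.267 without tI-3 replicate 1, in a range from 0.00747 to 0.267 over 16 other settings. Slc43a3 read 7.63, 7.33 and 7.28 in Ind-8, 7.90, 7.48 and 7.49 in Con-3 and 6.91 and 7.03 in tI-3, lowest in tI-3. It fell in tI-3 against Con-3 (log2 difference -0.66, 95% interval -0.99 to -0.32, adjusted p = 0.010), becoming 0.0702 without tI-3 replicate 1 in a range from 0.00486 to 0.0702 over 16 other settings. Its difference in Ind-8 against tI-3 (log2 difference 0.45, 95% interval 0.11 to 0.78, adjusted p = 0.0471) was lost in 8 of 16 other settings, at 0.187 with the arrays quantile-normalized again, 0.0585 with each array centred, 0.477 with the hybridization controls as a covariate, 0.133 without Ind-8 replicate 1, 0.0712 without Ind-8 replicate 2, 0.0545 without Con-3 replicate 2, 0.189 without tI-3 replicate 1 and 0.126 without tI-3 replicate 2, in a range from 0.0178 to 0.477 over 16 other settings. Slc43a2, another leucine carrier, was near background in all 3 lines.

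Most of the 17 Slc6a rows were low, and 13 of them lay under the olfactory receptor level in all 3 lines. Slc6a8, the creatine transporter, was called in 2 comparisons. It read 10.28, 9.93 and 9.86 in Ind-8, 9.51, 9.36 and 9.24 in Con-3 and 10.20 and 10.24 in tI-3, with Con-3 lowest on every array. Slc6a8 rose 1.57-fold in Ind-8 (log2 difference 0.65, 95% interval 0.38 to 0.92, adjusted p = 0.00418) and 1.80-fold in tI-3 against Con-3 (log2 difference 0.85, 95% interval 0.54 to 1.15, adjusted p = 0.00150), and both calls were kept in each of the 16 other settings. Slc6a6, the taurine transporter, had means of 9.77 ± 0.03 and 9.69 ± 0.17 (SD, n = 3 each) and 9.75 ± 0.09 (SD, n = 2), and its log2 differences lay between 0.03 and 0.08 with none called. Slc6a9, a glycine carrier, read 7.52, 7.38 and 7.42 in Ind-8, 7.48, 8.05 and 8.01 in Con-3 and 7.57 and 7.27 in tI-3 and was not called in any comparison (log2 difference -0.40, adjusted p = 0.0858 in Ind-8 against Con-3 and -0.42, adjusted p = 0.0945 in tI-3 against Con-3). It was called lower than in Con-3 in Ind-8 without Con-3 replicate 1 (adjusted p = 0.00724) and in tI-3 without Con-3 replicate 1 (adjusted p = 0.00789), in ranges from 0.00724 to 0.318 and from 0.00789 to 0.458 over 16 other settings. Across all families, 17 members were above the dim end in all 3 lines and called in none of the comparisons, with log2 differences from -0.43 to 0.41. The same count was not made over all distinct rows.

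Near background, 8 members were called lower in Ind-8 than in tI-3, among them Slc7a10. The others were Slc1a1, Slc38a5, Slc3a1, Slc6a18, Slc7a8, Slc7a9 and Slc7a15, with log2 differences from -0.77 (Slc7a15) to -0.37 (Slc7a8). Of the 4570 distinct rows whose mean over all arrays lay under 4.30, 497 were called lower and 43 higher. The 8 members were taken by their Ind-8 mean instead. Over all arrays Slc3a1 and Slc7a10 had means of 4.37 and 4.65, above that cut, so the 2 sets are not alike. With the arrays quantile-normalized again 2 of the 8 were still called, Slc7a10 and Slc7a15. With the hybridization controls as a covariate limma called none of them, among 0 members lower in all, where 6 members had an unadjusted p under 0.05. Of the 8, 5 were called without Ind-8 replicate 1, 7 without Ind-8 replicate 2, 7 without Ind-8 replicate 3, 6 without tI-3 replicate 1 and 1, Slc7a15, without tI-3 replicate 2. Slc1a1, Slc6a18 and Slc7a15 were also called higher in tI-3 than in Con-3, with log2 differences of 0.35, 0.49 and 0.52. Of these 3, 2 were called with the arrays quantile-normalized again or without Con-3 replicate 3, 1 without Con-3 replicate 1 or without tI-3 replicate 1, and none with the covariate or without tI-3 replicate 2. Slc1a7, Slc6a13, Slc6a15, Slc6a18 and Slc7a9 are outside the rule for named genes and were chosen after their values were seen.

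**Figure D4:**
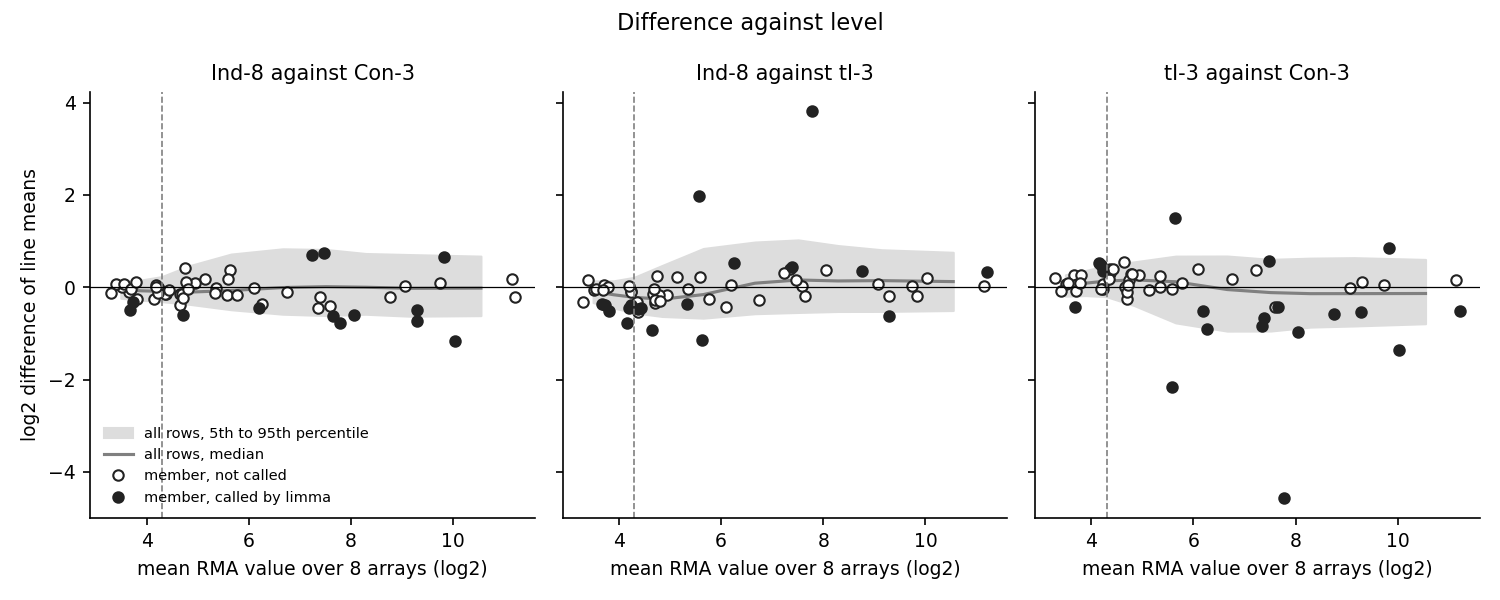
Log2 difference of line means (y axis) against the mean log2 value over the 8 arrays (x axis) for the 57 members in each comparison. The band spans the 5th to 95th percentile and the grey line the median of all distinct rows in 10 classes of level, and the dashed line marks the 25th percentile of row means; in Ind-8 against tI-3, 8 of the 12 members called lower were under that level in Ind-8.

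Genes that work with these carriers were followed in lists. Of 28 genes of the amino acid response, which ATF4 directs when amino acids run short, 27 were found. In Ind-8 against Con-3, 5 rose and 10 fell, in Ind-8 against tI-3 8 rose and 1 fell, and in tI-3 against Con-3 1 rose and 12 fell, where limma called 10.9% of all distinct rows higher and 10.3% lower in Ind-8 against Con-3, 15.9% and 14.8% in Ind-8 against tI-3 and 10.1% and 15.5% in tI-3 against Con-3. The medians of the list in the 3 comparisons were -0.19, 0.22 and -0.28, beside -0.06, -0.06 and 0.03 for all distinct rows. In each line 26 of the 27 rows were above the dim end. Distinct rows above the 25th percentile of row means had medians of -0.05, 0.01 and -0.01. Of them 14.2% were called higher and 13.2% lower, then 21.0% and 16.1%, and 12.1% and 20.4%. In classes 7 to 10 of 10 by level the medians were -0.02 to 0.01, 0.12 to 0.16 and -0.14 to -0.12. These have the signs of the list in both comparisons with tI-3. The level classes of the list's rows were not counted. Leaving out Con-3 replicate 3 gave 4 higher and 8 lower in Ind-8 against Con-3 and a median of -0.12, and with the arrays quantile-normalized again the median in Ind-8 against tI-3 was 0.11. With the hybridization controls as a covariate the first 2 medians were -0.08 and 0.34, 3 rose and 5 fell in Ind-8 against Con-3, and 2 rose and 0 fell in Ind-8 against tI-3, where 10 and 0 had an unadjusted p under 0.05. Atf4 itself read 11.97, 11.72 and 11.93 in Ind-8, 12.07, 12.17 and 12.32 in Con-3 and 11.99 and 11.82 in tI-3 and was not called (log2 difference -0.31, SE 0.11, adjusted p = 0.0611 in Ind-8 against Con-3), though that difference was with the arrays quantile-normalized again (adjusted p = 0.0373) or centred (adjusted p = 0.0388), in a range from 0.0373 to 0.256 over 11 other settings. Asns, asparagine synthetase, read 10.47, 10.12 and 10.47 in Ind-8, 10.99, 11.19 and 11.37 in Con-3 and 10.65 and 10.45 in tI-3 and fell against Con-3 in Ind-8 (log2 difference -0.83, SE 0.13, adjusted p = 0.00154) and in tI-3 (log2 difference -0.63, SE 0.15, adjusted p = 0.00989). Without tI-3 replicate 2 the last adjusted p was 0.0963, within a range from 0.00693 to 0.0963 with 1 array left out. Of the serine synthesis enzymes, Psat1 fell in Ind-8 against Con-3 (log2 difference -1.11, SE 0.11, adjusted p = 0.000126) and Psph in tI-3 against Con-3 (log2 difference -1.19, SE 0.17, adjusted p = 0.000696). Cth, which makes cysteine from cystathionine, read 6.56, 6.54 and 6.81 in Ind-8, 8.16, 8.78 and 8.88 in Con-3 and 5.50 and 5.76 in tI-3, with no overlap between lines. Its log2 difference was -2.98 (SE 0.20, adjusted p = 9.13e-06) in tI-3 against Con-3 and -1.97 (SE 0.18, adjusted p = 7.41e-05) in Ind-8 against Con-3. In the other direction Ddit4, an inhibitor of mTORC1 that p53 also induces, had means of 10.63, 9.18 and 9.22 and was higher in Ind-8 than in Con-3 (log2 difference 1.45, SE 0.15, adjusted p = 0.000148) and than in tI-3 (log2 difference 1.41, SE 0.17, adjusted p = 0.000320).

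The 20 cytosolic aminoacyl-tRNA synthetases, which load amino acids onto tRNA, were all found. In Ind-8 against Con-3, 1 rose and 8 fell, against tI-3 4 rose and 3 fell, and in tI-3 against Con-3 1 rose and 8 fell, with medians of -0.26, 0.12 and -0.32. The shares of all distinct rows in these comparisons were 10.9% higher and 10.3% lower, 15.9% and 14.8%, and 10.1% and 15.5%. All 20 synthetase rows were above the dim end in each line. The shares of rows above the 25th percentile, given with the amino acid response genes, are the closer ones. With the arrays quantile-normalized again Ind-8 against tI-3 turned to 2 higher and 3 lower and a median of -0.00381, and tI-3 against Con-3 had 3 higher and 7 lower and a median of -0.18. With the hybridization controls as a covariate limma called 1 higher in Ind-8 against tI-3, with a median of 0.20, and 0 higher in the other 2 comparisons (1 and 2 at an unadjusted p under 0.05). The lower counts against Con-3 were 6 in Ind-8 and 7 in tI-3 without Con-3 replicate 3. Tars fell in tI-3 against Con-3 (log2 difference -1.0, SE 0.11, adjusted p = 0.000198) and Lars in Ind-8 against Con-3 (log2 difference -0.90, SE 0.10, adjusted p = 0.000298). Gars was higher and Hars lower in Ind-8 than in tI-3, with log2 differences of 0.53 (SE 0.12, adjusted p = 0.00771) and -0.91 (SE 0.10, adjusted p = 0.000255), and for Gars the adjusted p was 0.0741 without tI-3 replicate 2, within a range from 0.00665 to 0.0741 with 1 array left out. Of the enzymes that use the carried amino acids, 19 of 20 genes were found in 20 rows. In Ind-8 against Con-3, 3 rose and 6 fell, with 6 higher and 0 lower in Ind-8 against tI-3 (2 lower at an unadjusted p under 0.05 by limma, 2 called with the arrays centred or quantile-normalized again, and 1 higher with the hybridization controls as a covariate) and 2 higher and 9 lower in tI-3 against Con-3, and the medians were -0.22, 0.16 and -0.22, beside the same shares of all distinct rows. The medians against Con-3 without its replicate 3 were -0.11 in Ind-8 and -0.14 in tI-3, with 5 and 7 lower, and with the covariate the 3 medians were -0.09, 0.25 and -0.34. The arginine-making enzyme Ass1 read 11.59, 11.96 and 11.90 in Ind-8, 9.01, 9.49 and 9.33 in Con-3 and 10.93 and 11.01 in tI-3, and was higher than in Con-3 both in Ind-8 (log2 difference 2.54, SE 0.14, adjusted p = 2.59e-06) and in tI-3 (log2 difference 1.70, SE 0.15, adjusted p = 6.52e-05). Spermidine synthase, Srm, fell in tI-3 against Con-3 (log2 difference -1.47, SE 0.13, adjusted p = 5.07e-05), as did Gpt2 (log2 difference -1.31, SE 0.20, adjusted p = 0.00101) and Bcat1 (log2 difference -1.18, SE 0.16, adjusted p = 0.000598), which transfer amino groups of alanine and of leucine.

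Of 15 genes for glutathione synthesis and cystine use, 14 were found in 15 rows, with 3 higher and 1 lower in Ind-8 against Con-3, 3 and 3 in Ind-8 against tI-3, and 2 and 2 in tI-3 against Con-3. The shares of all distinct rows were 10.9% higher and 10.3% lower, 15.9% and 14.8%, and 10.1% and 15.5%. The 3 lower in Ind-8 against tI-3 became 1 with the arrays quantile-normalized again and 0 with the hybridization controls as a covariate (1 at an unadjusted p under 0.05 by limma). Ind-8 against Con-3 had 2 higher without Con-3 replicate 3 and 2 lower with the arrays centred, and with the covariate 1 was higher in tI-3 against Con-3. The medians of the list lay from -0.16 to 0.15 over the 3 comparisons, in the main fit and 4 other settings. All 15 rows were above the dim end in each line. The shares of rows above the 25th percentile, given with the amino acid response genes, are the closer ones. Gss, glutathione synthetase, was higher in Ind-8 than in tI-3 (log2 difference 0.95, SE 0.11, adjusted p = 0.000320). Ggct, which breaks down glutamyl peptides, was higher in Ind-8 than in Con-3 (log2 difference 0.85, SE 0.23, adjusted p = 0.0251), a call lost at an adjusted p of 0.141 with the hybridization controls as a covariate, 0.0816 without Ind-8 replicate 1, 0.0909 without Ind-8 replicate 2, 0.060 without Con-3 replicate 2 and 0.0943 without Con-3 replicate 3, in a range from 0.00120 to 0.141 over 11 other settings. Chac1, which degrades glutathione, fell in tI-3 against Con-3 (log2 difference -0.93, SE 0.19, adjusted p = 0.00454). Chac1 was also lower in tI-3 than in Ind-8, at an adjusted p of 0.0139 and of 0.0835 with the hybridization controls as a covariate and 0.102 without tI-3 replicate 2, in a range from 0.00290 to 0.102 over 11 other settings. Beside a Slc7a11 higher in tI-3 than in both other lines, Cth was lower there than in both.

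**Figure D5:**
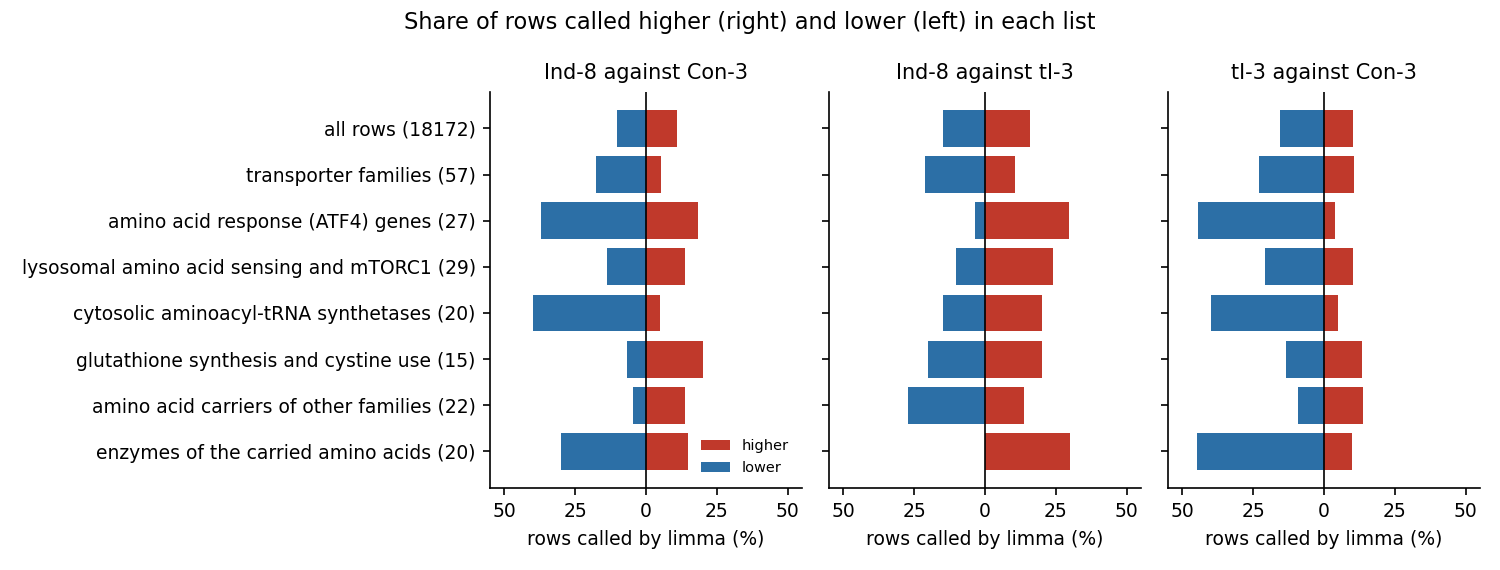
Share of the rows of each list (number of rows in brackets) that limma called higher (right of 0) or lower (left of 0) in each comparison (x axis, percent), with all distinct rows and the 57 member rows on top. The amino acid response genes, the tRNA synthetases and the enzymes have more rows lower than higher in Ind-8 and in tI-3 against Con-3, also with the arrays centred or quantile-normalized again.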

How the data were processed

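RNA of 8 cultures of 3 mouse fibroblast lines was read on Affymetrix mouse expression arrays. The deposited values are log2 intensities that the authors made with RMA on probe sets redefined by RefSeq transcript, and they were used without further scaling. Transcripts were named with the RefSeq gene table of assembly GRCm38.p6, which matched 18290 of 22523 rows (81.2%). Lines were compared with limma 3.58.1 in R 4.3.3 on all 8 arrays, with Benjamini-Hochberg adjustment over 22523 rows and calls at an adjusted p under 0.05. The study's rank product test was written again in Python 3.11.15 with numpy 2.4.6, with 100 permutations and calls at a pfp under 0.05. Both were tested on simulated data. Intervals are 95% intervals. Members and lists were chosen with earlier results of these data known. Named members were, per comparison, the 10 largest limma calls without overlap between the lines, all rank product calls and a set chosen by role, with up to 4 genes of each list (the largest calls), Atf4, Asns and the label and cell type markers. Other scalings, filters, priors, null distributions, a covariate for the hybridization controls and leaving out each array were tried as alternatives.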

Additional observations from a re-analysis of the deposited data

Results flagged for a closer look

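On Con-3 replicate 3 the array's 3 control probe sets for 18S rRNA, which no comparison used, read far above the other 7 arrays. The log2 value was 10.97 at the 5' end, against 4.55 to 5.25 elsewhere. In the middle of the transcript it was 9.53, against 5.59 to 6.45, and at the 3' end 11.38, against 6.59 to 7.67. Its part in the transporter differences was not tested beyond the values given without this array.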

How the results depend on the processing

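For the named members, 93 differences were computed again, 78 under 16 other settings and 15 under 15, since a filter on dim rows takes out 5 of these members. Of 42 limma calls 19 were kept in all settings run and 23 were lost in at least 1. Of the 51 differences that were not called, 16 were in at least 1 setting. Those not given with their genes are Slc7a6os in Ind-8 against Con-3 with the array numbers as a replicate block (adjusted p = 0.0322) and without Ind-8 replicate 1 (adjusted p = 0.0285), Slc1a6 in Ind-8 against Con-3 without Ind-8 replicate 3 (adjusted p = 0.0366), Slc1a5 in Ind-8 against tI-3 without Ind-8 replicate 2 (adjusted p = 0.0170), Slc1a3 in Ind-8 against tI-3 with the arrays quantile-normalized again (adjusted p = 0.0392), and in tI-3 against Con-3 Slc3a1 without Con-3 replicate 2 (adjusted p = 0.0352) and Slc38a5 without Con-3 replicate 3 (adjusted p = 0.0254). No called difference changed sign. With 1 array left out, limma called from 2 to 4 members higher and from 7 to 12 lower in Ind-8 against Con-3, from 2 to 7 higher and from 4 to 14 lower in Ind-8 against tI-3, and from 3 to 8 higher and from 9 to 13 lower in tI-3 against Con-3. The rank product test called from 0 to 1 member lower in Ind-8 against Con-3, from 1 to 2 higher in Ind-8 against tI-3, and from 0 to 1 higher and from 2 to 3 lower in tI-3 against Con-3. The medians of the members ran from -0.151 to -0.0565 in Ind-8 against Con-3, from -0.131 to -0.0605 in Ind-8 against tI-3 and from 0.0262 to 0.109 in tI-3 against Con-3. Where tI-3 keeps 1 array, its spread is taken from the other lines.

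With each ranking of the rank product test permuted on its own, 4 members were higher and 12 lower in Ind-8 against Con-3, 5 lower in Ind-8 against tI-3, and 5 higher and 7 lower in tI-3 against Con-3. With rows above the 25th percentile only, or a pfp under 0.01, it called 1 member lower in Ind-8 against Con-3, and at the stricter pfp 0 higher in tI-3 against Con-3, where 6 had an unadjusted p under 0.05. With the arrays quantile-normalized again, limma called 7 members lower in Ind-8 against tI-3, and the members' medians were -0.0602 in Ind-8 against Con-3 and 0.0313 in tI-3 against Con-3. With the hybridization controls as a covariate, limma called 2 members higher and 0 lower in Ind-8 against tI-3 and 2 higher in tI-3 against Con-3. The share of all distinct rows called with this covariate was not computed. By the olfactory receptor level 28 members were near background in all 3 lines, in place of 13. The cause of these changes was not tested. The trend in the prior, the fit of the compared lines alone, centring, repeated rows and 1 row per gene left each count of members within 1.5 times its value.

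As a replicate block, the array numbers gave 4 members higher and 13 lower in Ind-8 against Con-3, 6 and 15 in Ind-8 against tI-3, and 10 and 13 in tI-3 against Con-3. With this replicate block the call of Slc3a2 in Ind-8 against tI-3 was lost (adjusted p = 0.0734). The deviations of same-numbered arrays from their line means correlated at 0.27, 0.03 and 0.38 between Ind-8 and Con-3, 0.01 and -0.23 between Ind-8 and tI-3 and 0.20 and 0.04 between Con-3 and tI-3, so the numbers were not taken as paired.

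The gene lists were run under 4 settings chosen after seeing the data, as were the leave-one-out values of their named genes. With the hybridization controls as a covariate, the amino acid response (ATF4) genes had 3 higher and 5 lower in Ind-8 against Con-3, and 2 higher and 0 lower in Ind-8 against tI-3. The lysosomal amino acid sensing and mTORC1 genes then had 0 lower in Ind-8 against Con-3 (4 at an unadjusted p under 0.05) and 2 higher and 1 lower in Ind-8 against tI-3. The cytosolic aminoacyl-tRNA synthetases had 0 higher in Ind-8 against Con-3, 1 in Ind-8 against tI-3 and 0 in tI-3 against Con-3 (1, 5 and 2 at an unadjusted p under 0.05). For glutathione synthesis and cystine use it was 0 lower in Ind-8 against tI-3 (1 unadjusted) and 1 higher in tI-3 against Con-3. The amino acid carriers of other families had 0 higher and 0 lower in Ind-8 against tI-3 (3 and 4 unadjusted) and 1 lower in tI-3 against Con-3, and the enzymes of the carried amino acids 1 higher in Ind-8 against tI-3. With the arrays quantile-normalized again, the cytosolic aminoacyl-tRNA synthetases had 2 higher in Ind-8 against tI-3 and 3 higher in tI-3 against Con-3, and the lysosomal amino acid sensing and mTORC1 genes 5 higher in tI-3 against Con-3. The glutathione synthesis and cystine use genes had 1 lower and the enzymes of the carried amino acids 2 lower in Ind-8 against tI-3, and the amino acid carriers of other families 0 lower in Ind-8 against Con-3 and 1 lower in tI-3 against Con-3. With the arrays centred, the enzymes of the carried amino acids had 2 lower in Ind-8 against tI-3, and in Ind-8 against Con-3 the glutathione synthesis and cystine use genes had 2 lower and the amino acid carriers of other families 0 (4 unadjusted). Without Con-3 replicate 3, Ind-8 against Con-3 had 0 lower lysosomal amino acid sensing and mTORC1 genes (4 unadjusted) and 2 lower amino acid carriers of other families. Of the fibroblast markers, 1 was higher and 0 lower in Ind-8 against Con-3, 3 higher and 0 lower in Ind-8 against tI-3 and 1 higher in tI-3 against Con-3 with the covariate. In Ind-8 against Con-3 0 were lower with the arrays quantile-normalized again or without Con-3 replicate 3 (1 unadjusted in each), and without that array 1 was higher in tI-3 against Con-3.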

Other observations

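Lysosomal amino acid sensing and mTORC1 genes, which read out the amino acids that these carriers move, were found for 28 of 30 genes in 29 rows. Limma called 4 higher and 4 lower in Ind-8 against Con-3, 7 and 3 in Ind-8 against tI-3, and 3 and 6 in tI-3 against Con-3, where the shares of all distinct rows were 10.9% higher and 10.3% lower, 15.9% and 14.8%, and 10.1% and 15.5%. The 4 lower in Ind-8 against Con-3 became 0 without Con-3 replicate 3 (4 at an unadjusted p under 0.05), as with the hybridization controls as a covariate, which left 2 higher and 1 lower in Ind-8 against tI-3. With the arrays quantile-normalized again 5 were higher and 5 lower in tI-3 against Con-3. All 29 rows were above the dim end in each line. The shares of rows above the 25th percentile, given with the amino acid response genes, are the closer ones. The medians of the list lay from -0.05 to 0.11 over the 3 comparisons, in the main fit and 4 other settings, and all 3 changed sign with the arrays quantile-normalized again. Rragd, a GTPase that brings mTORC1 to the lysosome, read 5.81, 6.37 and 5.16 in Ind-8, 5.14, 4.99 and 5.00 in Con-3 and 7.65 and 7.18 in tI-3. Both tI-3 arrays were above all others, and the log2 difference was 2.37 (SE 0.28, adjusted p = 0.000254) in tI-3 against Con-3 and -1.63 (SE 0.28, adjusted p = 0.00229) in Ind-8 against tI-3. The leucine sensor Sesn2 read 7.17, 8.01 and 7.89 in Ind-8, 6.40, 7.25 and 7.08 in Con-3 and 6.34 and 6.86 in tI-3. It was higher in Ind-8 than in tI-3 (log2 difference 1.09, SE 0.29, adjusted p = 0.0185), with an adjusted p of 0.0602 without Ind-8 replicate 2, 0.129 without tI-3 replicate 1 and 0.103 with the hybridization controls as a covariate, in a range from 0.00789 to 0.129 over 11 other settings. Fnip1, a partner of folliculin, had means of 8.85, 7.86 and 8.94 in Ind-8, Con-3 and tI-3, and Wdr59, a part of the complex that relieves inhibition of mTORC1, means of 6.61, 6.62 and 5.54.

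Of 21 amino acid and peptide carriers of other families 20 were found in 22 rows. Limma called 3 higher and 1 lower in Ind-8 against Con-3, 3 and 6 in Ind-8 against tI-3, and 3 and 2 in tI-3 against Con-3, beside the same shares of all distinct rows. The medians lay from -0.06 to 0.10 over the 3 comparisons and the same settings. The 1 lower in Ind-8 against Con-3 became 2 without Con-3 replicate 3 and 0 with the arrays centred or quantile-normalized again (4 and 3 at an unadjusted p under 0.05), and the 2 lower in tI-3 against Con-3 became 1 with the arrays quantile-normalized again or with the covariate. With the hybridization controls as a covariate 0 were higher and 0 lower in Ind-8 against tI-3 (3 and 4 at an unadjusted p under 0.05 by limma). The row of Slc15a2, a carrier of small peptides, with the larger difference of its 2 read 4.65, 4.44 and 4.72 in Ind-8, 4.77, 4.84 and 4.84 in Con-3 and 5.15 and 5.48 in tI-3, highest in tI-3. Its log2 difference was -0.71 (SE 0.12, adjusted p = 0.00263) in Ind-8 against tI-3 and 0.49 (SE 0.12, adjusted p = 0.0146) in tI-3 against Con-3. The first adjusted p was 0.114 with the covariate, in a range from 0.00237 to 0.114 over 11 other settings, and the second 0.0675 with the covariate and 0.155 without tI-3 replicate 2, in a range from 0.0131 to 0.155 over 11 other settings. The mitochondrial carrier Slc25a40 read 8.72, 8.96 and 8.73 in Ind-8, 8.74, 8.44 and 8.40 in Con-3 and 9.31 and 9.07 in tI-3, also highest in tI-3, and rose in tI-3 against Con-3 (log2 difference 0.67, SE 0.14, adjusted p = 0.00533), with an adjusted p of 0.0539 without tI-3 replicate 1 in a range from 0.00232 to 0.0539 over 11 other settings. The lysosomal cystine exporter Ctns read 6.65, 6.59 and 6.51 in Ind-8, 5.90, 5.91 and 5.94 in Con-3 and 6.08 and 5.81 in tI-3. Ind-8 was above both other lines on every array, with a log2 difference of 0.67 (SE 0.09, adjusted p = 0.000934) against Con-3 and of 0.64 (SE 0.11, adjusted p = 0.00211) against tI-3, the last at an adjusted p of 0.0728 with the covariate in a range from 0.00227 to 0.0728 over 11 other settings. Slc66a1, which exports cationic amino acids from lysosomes, was higher in Ind-8 than in Con-3 (log2 difference 0.50, SE 0.13, adjusted p = 0.0162) and than in tI-3 (log2 difference 0.67, SE 0.14, adjusted p = 0.00624). Its first adjusted p was 0.0513 without Con-3 replicate 3, in a range from 0.0146 to 0.0513 over 11 other settings, and its second 0.0854 with the covariate and 0.0529 without tI-3 replicate 1, in a range from 0.00638 to 0.0854 over 11 other settings.

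Among the fibroblast markers 2 were called higher and 1 lower in Ind-8 against Con-3, 5 and 1 in Ind-8 against tI-3, and 3 and 3 in tI-3 against Con-3, of 10 rows and beside the same shares of all distinct rows. Without Con-3 replicate 3 limma called 0 lower in Ind-8 against Con-3 (1 at an unadjusted p under 0.05) and 1 higher in tI-3 against Con-3, and with the hybridization controls as a covariate 1 higher in each of these comparisons, 0 lower in Ind-8 against Con-3, and 3 higher and 0 lower in Ind-8 against tI-3. The collagen gene Col3a1 read 7.91, 9.32 and 9.18 in Ind-8, 8.59, 9.37 and 9.25 in Con-3 and 6.26 and 6.51 in tI-3. Both tI-3 arrays were below all others (log2 difference -2.68, SE 0.37, adjusted p = 0.000621 in tI-3 against Con-3), and Pdgfra and Col1a1 were the other 2 called lower there. The call of Col1a1 (adjusted p = 0.00474) was lost without tI-3 replicate 1, a fit that keeps 1 tI-3 array. The 3 called higher in tI-3 than in Con-3 were Pdgfrb (log2 difference 0.33, adjusted p = 0.0300, lost in 4 of 11 other settings, in a range from 0.00624 to 0.121), Thy1 (log2 difference 0.37, adjusted p = 0.0275, lost in 6 of 11 other settings, in a range from 0.0203 to 0.165) and Fn1 (log2 difference 0.28, adjusted p = 0.0482, lost in 10 of 11 other settings, in a range from 0.0148 to 0.235).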
